A study of Mus musculus with 15 samples.

Results

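The genes described here were 10 serine protease inhibitor (serpin) genes of clade A, namely the Serpina3 copies Serpina3c, Serpina3f, Serpina3g, Serpina3h, Serpina3k, Serpina3m and Serpina3n and the neighbouring genes Serpina6, Serpina11 and Serpina12. They were taken by symbol from the deposited table of mouse liver RNA-seq, in which they made up 10 of 19464 rows, and each symbol stood on 1 row. The genes had been selected on their measured counts in the comparison of Stab1-/- with wildtype livers, whose results were already known, so every comparison of the genotypes below is a description and carries no test of these genes. At 2 weeks of age there were 4 wildtype and 4 Stab1-/- livers, and at the embryonic stage E17.5 there were 4 wildtype and 3 Stab1-/- fetal livers, each with 1 library. Stab1 encodes Clever-1, a scavenger and adhesion receptor of endothelial cells and macrophages, and the knock-out removes it from all cells rather than from a single cell type. Both genotypes are given with the same mixed C57BL/6N;129SvJ strain background, and how alike single animals were in their genomes was not examined. The labels do not state whether animals were littermates, and the libraries of a group are taken as separate animals by their replicate number only, so p-values measure the spread between these libraries.

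Serpins inhibit proteases by offering an exposed reactive centre loop as bait. The protease cuts the loop and is then trapped in a distorted complex with the inhibitor. In place of the human gene SERPINA3, which encodes the acute-phase protein alpha-1-antichymotrypsin, mice carry a tandem array of Serpina3 copies whose loops have diverged, and the liver secretes much of their product into plasma. Serpina6 encodes corticosteroid-binding globulin, a serpin that carries glucocorticoids and inhibits no protease. Serpina12 encodes vaspin, a product best known from adipose tissue.

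The 10 genes lay on chromosome 12. In the GENCODE vM21 annotation of GRCm38, 28 genes with a Serpina symbol stood between positions 103614786 and 104414329. Serpina6 (chr12:103646630-103657212), Serpina11 (chr12:103980243-103989957), Serpina12 (chr12:104028769-104044443) and Serpina3c (chr12:104146382-104153870) were on the minus strand. Serpina3f (chr12:104214544-104221129), Serpina3g (chr12:104236245-104241939), Serpina3h (chr12:104247905-104253669), Serpina3k (chr12:104338486-104346144), Serpina3m (chr12:104338486-104394257) and Serpina3n (chr12:104406729-104414329) were on the plus strand. Serpina3h was annotated as a transcribed unprocessed pseudogene and the other 9 as protein coding. The annotated span of Serpina3m covered the whole of Serpina3k on the same strand. The build and annotation used for the deposited counts are not given in the sources used here, so these positions serve to place the genes and not the reads.

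The reactive centre loop is shown because it is the part of a serpin that its target protease meets. Each line below gives 60 bases of the transcript, 5′ to 3′, starting at the first codon of the conserved hinge of the loop, and capitals mark the bases that differ from Serpina3n when the windows are laid side by side without gaps. The hinge was found in 8 of the 10 genes. Serpina6 and Serpina12 did not hold its letters.
Serpina3n: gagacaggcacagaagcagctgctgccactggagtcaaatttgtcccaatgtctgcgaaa
Serpina3k: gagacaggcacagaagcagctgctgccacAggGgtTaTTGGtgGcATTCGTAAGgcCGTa
Serpina3m: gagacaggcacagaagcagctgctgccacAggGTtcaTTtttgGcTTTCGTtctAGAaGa
Serpina3c: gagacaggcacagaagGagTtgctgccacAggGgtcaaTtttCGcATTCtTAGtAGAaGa
Serpina3f: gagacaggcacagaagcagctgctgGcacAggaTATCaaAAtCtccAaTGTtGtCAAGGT
Serpina3g: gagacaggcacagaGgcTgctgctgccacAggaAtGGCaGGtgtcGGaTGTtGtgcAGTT
Serpina3h: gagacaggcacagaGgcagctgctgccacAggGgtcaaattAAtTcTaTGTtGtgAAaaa
Serpina11: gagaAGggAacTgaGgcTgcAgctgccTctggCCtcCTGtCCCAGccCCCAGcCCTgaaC
Over the first 18 bases, the hinge, Serpina3f, Serpina3k and Serpina3m had no difference from Serpina3n, Serpina3c and Serpina3h had 1, and Serpina3g had 2. Over the next 42 bases the differences from Serpina3n numbered 12 in Serpina3h, 16 in Serpina3m, 17 in Serpina3c and in Serpina3g, and 20 in Serpina3f and in Serpina3k. Serpina11 differed at 6 bases of the hinge and at 21 of the others.

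The likeness of the whole transcripts bears on how reads could be assigned. Between pairs of the 7 Serpina3 copies it ran from 76.7% of aligned bases, for Serpina3f and Serpina3k, upward. Serpina3k and Serpina3m were identical at 91.4% of aligned transcript bases, Serpina3c and Serpina3m at 89.98%, Serpina3g and Serpina3h at 88.8%, and Serpina3f and Serpina3g at 88.5%. Serpina6, Serpina11 and Serpina12 were identical to any Serpina3 copy at 62.6% to 67.5% of aligned bases. Of all 50-base stretches in the transcripts of Serpina3h, 24.4% also occurred in the transcripts of another gene, with 18.3% in Serpina3i. This share was 19.1% for Serpina3m, with 16.0% in Serpina3k, and 14.0% for Serpina3k, with 12.8% in Serpina3m. It was 16.0% for Serpina3g, 10.7% for Serpina3f, 6.90% for Serpina3n and 4.25% for Serpina3c. Serpina11 shared 43.9% of its stretches with the annotated gene Gm28577, and Serpina6 and Serpina12 shared no stretch with another gene. The deposited counts are labelled as unique reads, and how reads matching several copies were handled is not stated. Levels of single Serpina3 copies and of Serpina11 are therefore uncertain where counting could split or lose reads. Sums over the copies are given beside them, but a sum does not restore reads that were left out.

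The libraries held 9659 to 10964 kiloreads on genes. Stab1 itself was checked first, and its mean RPKM (reads divided by gene length and library total) in Stab1-/- livers was 11.7% of wildtype at 2 weeks and 25.4% at E17.5, with no overlap between genotypes. All 10 hepatocyte markers examined had reads in all 15 libraries, with a summed RPKM of 73000 to 134000. At E17.5, Stab1-/- replicate 1 stood apart in 14 intestinal epithelium markers, whose summed RPKM was 562 against 26.1 to 47.6 in the other E17.5 libraries, with 253 reads of the intestinal factor Cdx2 against 0 to 19. Stab1-/- replicate 3 also held more reads of Cdx1 (12), Cdx2 (19), Cdh17 (42) and Vil1 (94) than any wildtype fetal library, where these had at most 1, 1, 5 and 37. In Stab1-/- replicate 2 they had 0, 1, 0 and 33 reads. Wildtype replicate 2 stood apart in 11 pancreatic exocrine markers, with a summed RPKM of 3700 against 15 to 355. Fold changes at E17.5 and the sum of the copies are also given without each of these 3 libraries.

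Serpina3n, the copy closest in role to human SERPINA3 and an inhibitor of proteases such as granzyme B, separated the genotypes before birth. In wildtype fetal livers its RPKM was 23.0, 24.8, 26.7 and 16.9 in replicates 1 to 4. In Stab1-/- fetal livers it was 112, 100 and 123. The 3 Stab1-/- libraries thus all lay above the 4 wildtype ones, with means of 112 ± 11.5 and 22.9 ± 4.28 (SD), a ratio of 4.89. At 2 weeks Serpina3n had an RPKM of 296, 299, 444 and 398 in wildtype and of 263, 282, 341 and 293 in Stab1-/- livers, and here the genotypes overlapped. The log2 fold change of Stab1-/- over wildtype was 2.34 ± 0.15 (SE, edgeR) at E17.5 and -0.38 ± 0.16 at 2 weeks, a difference of 2.69 ± 0.24 between the stages. Of the 9 genes tested for that difference Serpina3n alone was called, beside 1.01% of all 13885 rows called in that direction. DESeq2 called 2, Serpina3n and Serpina3f, beside 7.99% of 12873 rows in either direction. Without Stab1-/- replicate 1 the E17.5 value was 2.36, without Stab1-/- replicate 3 it was 2.27, and without wildtype replicate 2 it was 2.38.

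**Figure D1:**
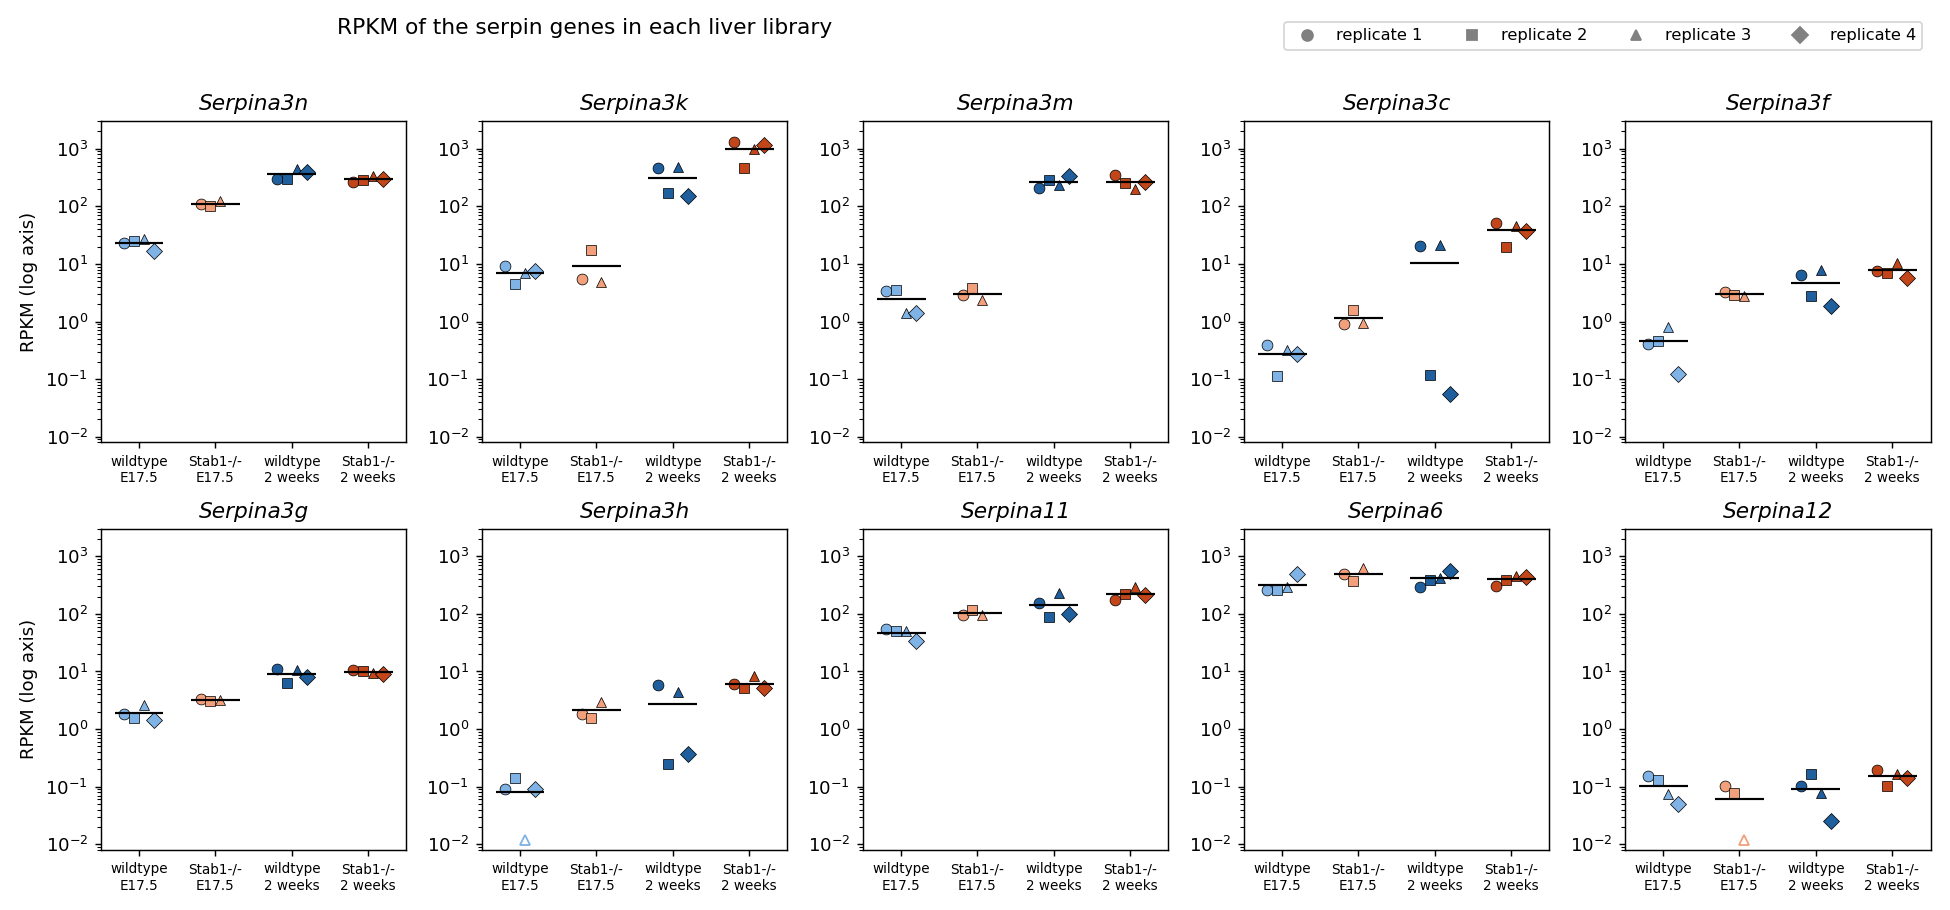
RPKM on a log axis for each of the 10 genes in the 15 liver libraries, by genotype and stage, with replicate numbers as symbols, group means as bars and open symbols at the bottom for libraries with no read. Serpina3n separates the genotypes at E17.5 but not at 2 weeks, and wildtype replicates 2 and 4 at 2 weeks lie far below replicates 1 and 3 in Serpina3c and Serpina3h.

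Several low copies followed the same order at E17.5. Serpina3h, the annotated pseudogene, had 2, 3, 0 and 2 reads in the wildtype fetal libraries and 39, 33 and 65 in the Stab1-/- ones. Summed over libraries these were 7 and 137 reads, a ratio of 26.6 after division by library totals, with a 95% counting interval of 12.6 to 67.3, which covers counting error only. Serpina3f had 10, 11, 20 and 3 reads in wildtype and 77, 68 and 66 in Stab1-/- fetal livers. Serpina3c had 7, 2, 6 and 5 reads against 16, 28 and 17, a ratio of 4.14 with a counting interval of 2.46 to 7.25. In all 3 of these copies every Stab1-/- fetal library exceeded every wildtype one, although the wildtype libraries held at most 20 reads of any of them.

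Serpina3g, an intracellular copy known from haematopoietic cells that inhibits cysteine cathepsins, had an RPKM of 1.83, 1.56, 2.65 and 1.43 in wildtype and 3.32, 3.01 and 3.16 in Stab1-/- fetal livers. The groups did not overlap, and the ratio of means was 1.70. Serpina11 had 54.1, 49.6, 49.8 and 33.4 RPKM against 94.96, 116 and 97.3, also without overlap, a ratio of 2.20. For Serpina6 the values were 258, 257, 289 and 485 against 494, 378 and 627, and wildtype replicate 4 reached into the range of the Stab1-/- libraries.

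Serpina3k, which binds tissue kallikrein, and its close copy Serpina3m were low before birth in both genotypes. Serpina3k had an RPKM of 9.05, 4.52, 6.85 and 7.47 in wildtype and 5.58, 17.6 and 4.85 in Stab1-/- fetal livers, so Stab1-/- replicate 2 alone stood above the wildtype range. Without that library its log2 difference changed from 0.50 ± 0.43 to -0.38. Serpina3m had 3.40, 3.56, 1.42 and 1.40 against 2.91, 3.84 and 2.32, and these ranges overlapped in part. Serpina12 was near the limit of counting in every library, with 0 to 7 reads and an RPKM of at most 0.192, and no fold is given for it. A library can show no less than about 3 reads with any certainty.

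In the E17.5 comparison edgeR tested 9 of the 10 genes, Serpina12 falling under its filter on low counts. Serpina3h and Serpina3c, with at most 7 reads in any wildtype fetal library, passed that filter through the Stab1-/- libraries, where they are high. Serpina3n, Serpina3h, Serpina3f and Serpina11 were called higher in Stab1-/- livers, 4 of 9, with log2 fold changes of 2.34, 4.69 ± 0.48, 2.75 ± 0.38 and 1.199 ± 0.166. Among all 13388 rows tested, 0.194% were called higher. The genes were picked with this contrast in view, so nothing is read from that difference. Of the 10 genes, 6 had every Stab1-/- library above every wildtype one, against 2.91% of the rows tested. Serpina3f lost its call without Stab1-/- replicate 2 or 3 or wildtype replicate 1 or 2, where the adjusted p of edgeR lay between 0.0542 and 0.0736, and Serpina11 lost it without Stab1-/- replicate 2 (0.0543) or wildtype replicate 2 (0.0549). DESeq2 called these 4 and Serpina3c (adjusted p = 0.0343), beside 1.5% of 15361 rows in either direction.

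The libraries with intestinal or pancreatic markers were left out in turn. Without Stab1-/- replicate 1 all 4 genes stayed called with log2 fold changes of 2.36, 4.81, 2.70 and 1.27. Without Stab1-/- replicate 3, Serpina3n (2.27), Serpina3h (4.36) and Serpina11 (1.245) stayed called, and without wildtype replicate 2, Serpina3n (2.38) and Serpina3h (5.06). Among the genes not called, the log2 fold change without these libraries, in the same order, was 2.25, 2.22 and 1.84 for Serpina3c, 0.80, 0.82 and 0.73 for Serpina3g and 0.72, 0.50 and 0.60 for Serpina6. It was 0.77, 0.81 and 0.33 for Serpina3k, beside 0.50 with all libraries. The same 6 genes had every Stab1-/- library above every wildtype one in each case. This had to follow, since leaving out a library cannot make separate groups overlap. For the same reason Stab1-/- replicate 2 lay above all wildtype libraries in these 6 genes. That replicate held no more of the 4 intestinal markers above than wildtype libraries did. This is 1 library, and the part of intestinal or pancreatic tissue in the serpin values was not tested.

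Markers of blood cells are given beside these values. In edgeR 0 of 12 granulocyte markers and 0 of 4 tested T and NK cell markers were called in either direction at E17.5. The summed RPKM of 12 granulocyte markers was 5340 to 8550 in wildtype and 3780 to 4100 in Stab1-/- fetal livers, and that of 11 T and NK cell markers was 9.14 to 13.2 against 6.39 to 8.12. All 12 granulocyte markers had reads in every E17.5 library, 1 to 3 T and NK cell markers were at 0, and the part of either in the serpin values was not tested. In whole liver RNA, fewer cells of a type and less RNA per cell cannot be told apart.

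At 2 weeks the picture was led by Serpina3k. Its RPKM was 464, 169, 480 and 152 in wildtype replicates 1 to 4 and 1320, 459, 991 and 1150 in Stab1-/- livers. The means were 316 ± 180 and 979 ± 372 (SD), a ratio of 3.10, and the groups overlapped through Stab1-/- replicate 2. The log2 fold change was 1.54 ± 0.40. Serpina3k was thus the most abundant of the 10 genes by RPKM in every 2-week Stab1-/- library.

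In several copies the 2-week wildtype livers differed widely among themselves. Serpina3c had 367 and 384 reads in wildtype replicates 1 and 3 but 2 and 1 reads in replicates 2 and 4, and 355 to 850 reads in the Stab1-/- libraries. Serpina3h had 124 and 96 reads in wildtype replicates 1 and 3, 5 and 8 in replicates 2 and 4, and 102 to 164 in Stab1-/- livers. The same pair of libraries was also lowest of the 8 in Serpina3k, in Serpina3f (RPKM 2.73 and 1.87 against 6.40 and 7.98 in replicates 1 and 3) and in Serpina11 (88.7 and 100 against 158 and 228). Replicates 1 and 3 lay within the Stab1-/- range or close to it in Serpina3c, Serpina3f, Serpina3h and Serpina11. These libraries are named after their values were seen, and they are not a group of the study.

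The drop did not extend to every copy in those livers. Serpina3m had an RPKM of 209, 291, 231 and 336 in wildtype replicates 1 to 4, so replicates 2 and 4 held the higher values, although its annotated span covers Serpina3k. Serpina3n had 299 and 398 in replicates 2 and 4, and Serpina6 had 386 and 558, within the range of the other 2-week libraries or above it. Serpina3g was lowest in replicate 2 (6.26) and next in replicate 4 (7.94) of 8 libraries that otherwise spanned 9.11 to 11.2. Serpina3b and Serpina3i, copies outside the 10 genes looked at for this reason, were again lowest in wildtype replicates 2 and 4. Serpina3b had an RPKM of 0.738, 0.146, 0.637 and 0.0453 from 16, 3, 14 and 1 reads. Serpina3i had 1.0, 0.184, 0.773 and 0.214 from 23, 4, 18 and 5 reads. The low values lay near the limit of counting, and 18.3% of the transcript stretches of Serpina3h also occur in Serpina3i. Serpina1a (RPKM 571, 868, 698 and 912), Serpina1b, Serpina1c and Serpina1d were higher in replicates 2 and 4. Serpina7 was lower there (40.8 and 15.2 against 48.8 and 43.3). The other clade A serpins had neither order or few reads.

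No gene had every Stab1-/- library above every wildtype one at 2 weeks, whereas 10.4% of the rows tested did. The log2 fold changes were 1.76 ± 0.86 for Serpina3c, 1.09 ± 0.61 for Serpina3h, 0.61 ± 0.36 for Serpina3f (SE), 0.56 ± 0.27 for Serpina11, 0.04 ± 0.16 for Serpina3g, -0.11 ± 0.18 for Serpina3m and -0.16 ± 0.20 for Serpina6. Serpina3c moved between 1.35 without wildtype replicate 4 and 2.40 without wildtype replicate 3, and Serpina3h between 0.71 without wildtype replicate 2 and 1.74 without wildtype replicate 1. In edgeR 0 of the 9 genes tested were called, 2 had an unadjusted p under 0.05 (Serpina3k and Serpina3n), and DESeq2 called 1, Serpina3k. Of all 12716 rows, edgeR called 2.67% in either direction and 23.4% had an unadjusted p under 0.05, and DESeq2 called 6.61% of 13026. Of 9 granulocyte markers tested 0 were called. Their summed RPKM was 34.5 to 153 in wildtype and 196 to 429 in Stab1-/- livers, and their part in these values was not tested.

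**Figure D2:**
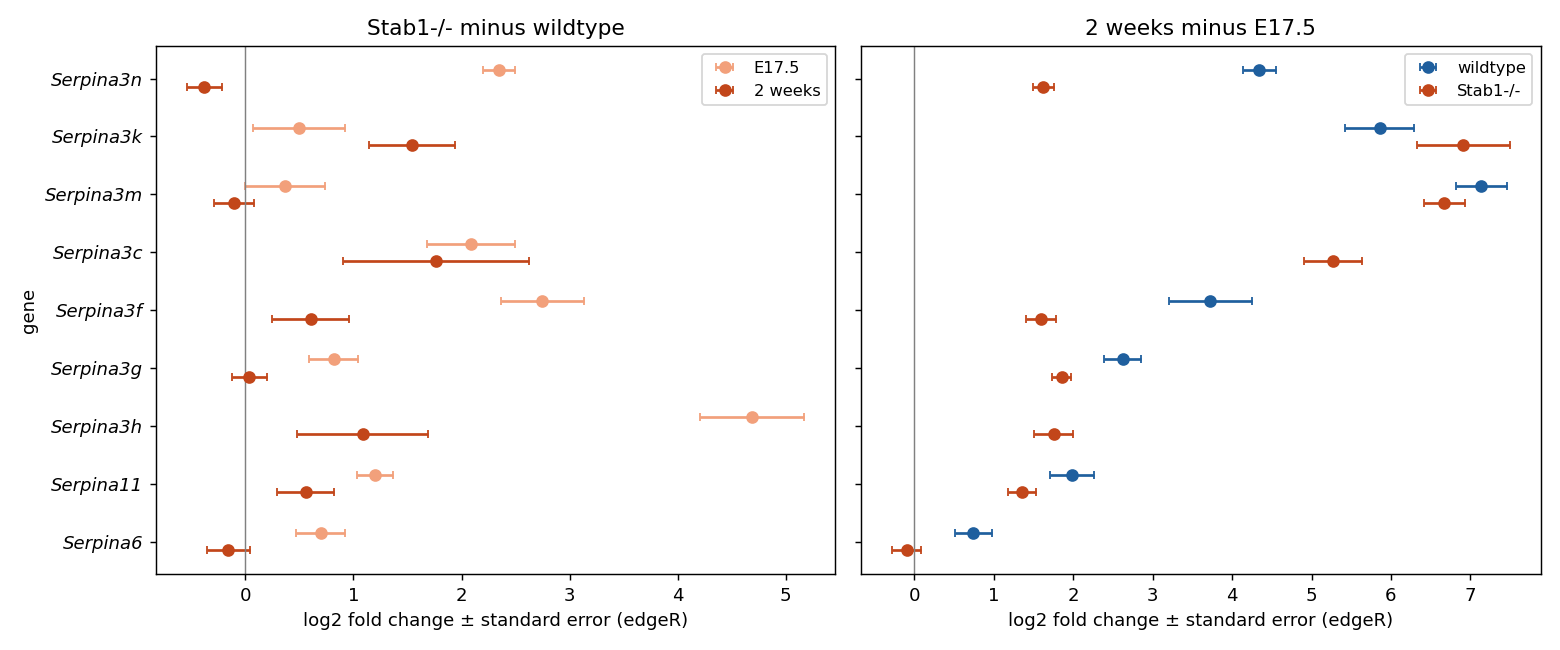
Fitted log2 fold changes with standard errors (edgeR) for the genes that could be tested, on the left for Stab1-/- over wildtype at E17.5 and at 2 weeks, and on the right for 2 weeks over E17.5 in each genotype. Serpina3n lies at 2.34 before birth and at -0.38 after it on the left, and on the right all points but Serpina6 lie well above 0.

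The stage comparison was not itself used to choose the genes, and it was tested. Within a genotype it shares its libraries with the genotype comparisons that were in view, so it is not independent of that choice. The average weighs both genotypes equally and is given beside it. Nearly all of the genes were higher at 2 weeks than at E17.5. In wildtype livers all 7 genes that passed the filter were called higher, against 34.9% of the 13369 rows tested. Serpina3f passed the filter through its 2-week libraries, where it is high, as its wildtype fetal libraries held 3 to 20 reads. In Stab1-/- livers 8 of 9 were called higher, against 35.7%, and averaged over genotypes 8 of 9, against 38.9%. Every wildtype 2-week library lay above every wildtype fetal library in 7 of the 10 genes, against 21.1% of rows, and the same held in Stab1-/- livers for 8 of the 10, against 28%. The median log2 change was 3.73 over the 7 genes tested in wildtype and 1.75 over the 9 tested in Stab1-/- livers, beside -0.01 over all rows in each. Serpina3c and Serpina3h enter only the second median, so the 2 medians are not of the same genes. Scaling by library totals alone moved the median of all rows to -0.38 in wildtype and -0.24 in Stab1-/- livers, and among these genes the only call this ended was that of Serpina6 in wildtype.

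The steepest rise was that of Serpina3m and Serpina3k. Serpina3m rose by a log2 fold change of 7.14 ± 0.32 in wildtype (SE, edgeR, adjusted p = 1.62e-09) and 6.67 ± 0.25 in Stab1-/- livers (adjusted p = 3.09e-09), from mean RPKM values of 2.44 and 3.02 to 267 and 265. Serpina3k rose by 5.86 ± 0.44 (adjusted p = 1.43e-07) and 6.91 ± 0.58 (adjusted p = 1.16e-06). Both copies lay at 1.40 to 17.6 RPKM in the fetal livers and at 152 to 1320 in the 2-week livers, with no overlap.

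Serpina3n rose by 4.34 ± 0.21 in wildtype (edgeR, adjusted p = 2.76e-09) and by 1.62 ± 0.13 in Stab1-/- livers (adjusted p = 6.6e-07), whose fetal level was already higher. Serpina3f rose by 3.73 ± 0.53 and 1.60 ± 0.19, and Serpina3g by 2.62 ± 0.23 and 1.85 ± 0.12. Serpina11 rose by 1.99 ± 0.28 and 1.35 ± 0.18. All these changes were called, with adjusted p-values of at most 4.25e-05 in edgeR.

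Serpina3c and Serpina3h rose in Stab1-/- livers, by 5.27 ± 0.37 (edgeR, adjusted p = 2.48e-07) and 1.75 ± 0.25 (adjusted p = 7.61e-05). In wildtype they fell under the filter on low counts. Fitted without it, Serpina3c had a log2 fold change of 5.60 ± 1.29 (adjusted p = 0.00187), although wildtype replicates 2 and 4 at 2 weeks held no more of its reads than the fetal libraries. Serpina3h had 233 reads over the wildtype 2-week libraries against 7 over the fetal ones, a ratio of 34.2 with a counting interval of 16.4 to 86.1. The interval covers counting error only, and replicates 1 and 3 held 124 and 96 of the 2-week reads. Fitted without the filter, Serpina3h had a log2 fold change of 5.35 ± 1.03 (edgeR, adjusted p = 0.000441).

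Serpina6, which carries corticosteroids in plasma, was the exception. It was already at 257 to 485 RPKM in wildtype fetal livers and changed by 0.74 ± 0.23 in wildtype (edgeR, adjusted p = 0.0129) and by -0.10 ± 0.19 in Stab1-/- livers (adjusted p = 0.652). Averaged over genotypes its change was 0.32 ± 0.17 (adjusted p = 0.0883), and scaled by library totals the wildtype change was 0.37 with an adjusted p of 0.163.

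The makeup of the liver changed between the stages as well. All 10 erythroid markers and all 12 granulocyte markers tested were called lower at 2 weeks, with summed RPKM of 11300 to 15900 against 195 to 443 for the former and 3780 to 8550 against 34.5 to 429 for the latter. The summed hepatocyte markers were 73000 to 91700 at E17.5 and 83900 to 134000 at 2 weeks, with 9 of 10 called higher averaged over genotypes. The part of this shift in the serpin values was not tested.

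Because reads of similar copies may be assigned to the wrong copy, the 7 Serpina3 copies were also summed, in RPM, reads scaled to a common library size with TMM. Reads left out because they match several copies are missing from the sum too. The sum was 67.6, 60.9, 68.8 and 46.4 in wildtype fetal livers and 230, 252 and 264 in Stab1-/- fetal livers. At 2 weeks it was 1990, 1570, 2520 and 1920 in wildtype and 3550, 1990, 2960 and 3460 in Stab1-/- livers. Before birth the genotypes did not overlap, with a ratio of 4.09 (4.24 without Stab1-/- replicate 1, 3.96 without Stab1-/- replicate 3 and 4.09 without wildtype replicate 2), and at 2 weeks they did, with a ratio of 1.5. Leaving out Serpina3k and Serpina3m, the most similar pair, the ratio was 4.88 at E17.5 and 0.863 at 2 weeks. At E17.5 Serpina3n held 64.8% to 88.8% of the summed reads, so the separation of the sum there largely repeats that of Serpina3n. The 2-week ratio above 1 was lost without that pair. Of the pair, Serpina3k had a 2-week ratio of mean RPKM of 3.10 and Serpina3m one of 0.995.

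Between the stages the sum rose 32.8-fold in wildtype (two-sided exact permutation test on log2 values, p = 0.02857, the smallest that 4 against 4 libraries allow). In Stab1-/- livers it was 12-fold higher at 2 weeks (exact permutation p = 0.05714, the smallest that 4 against 3 allow, so this design cannot pass 0.05). Serpina6, Serpina11 and Serpina12 together were 1.95-fold higher at 2 weeks in wildtype (exact permutation p = 0.02857) and 1.22-fold in Stab1-/- livers (exact permutation p = 0.2857).

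**Figure D3:**
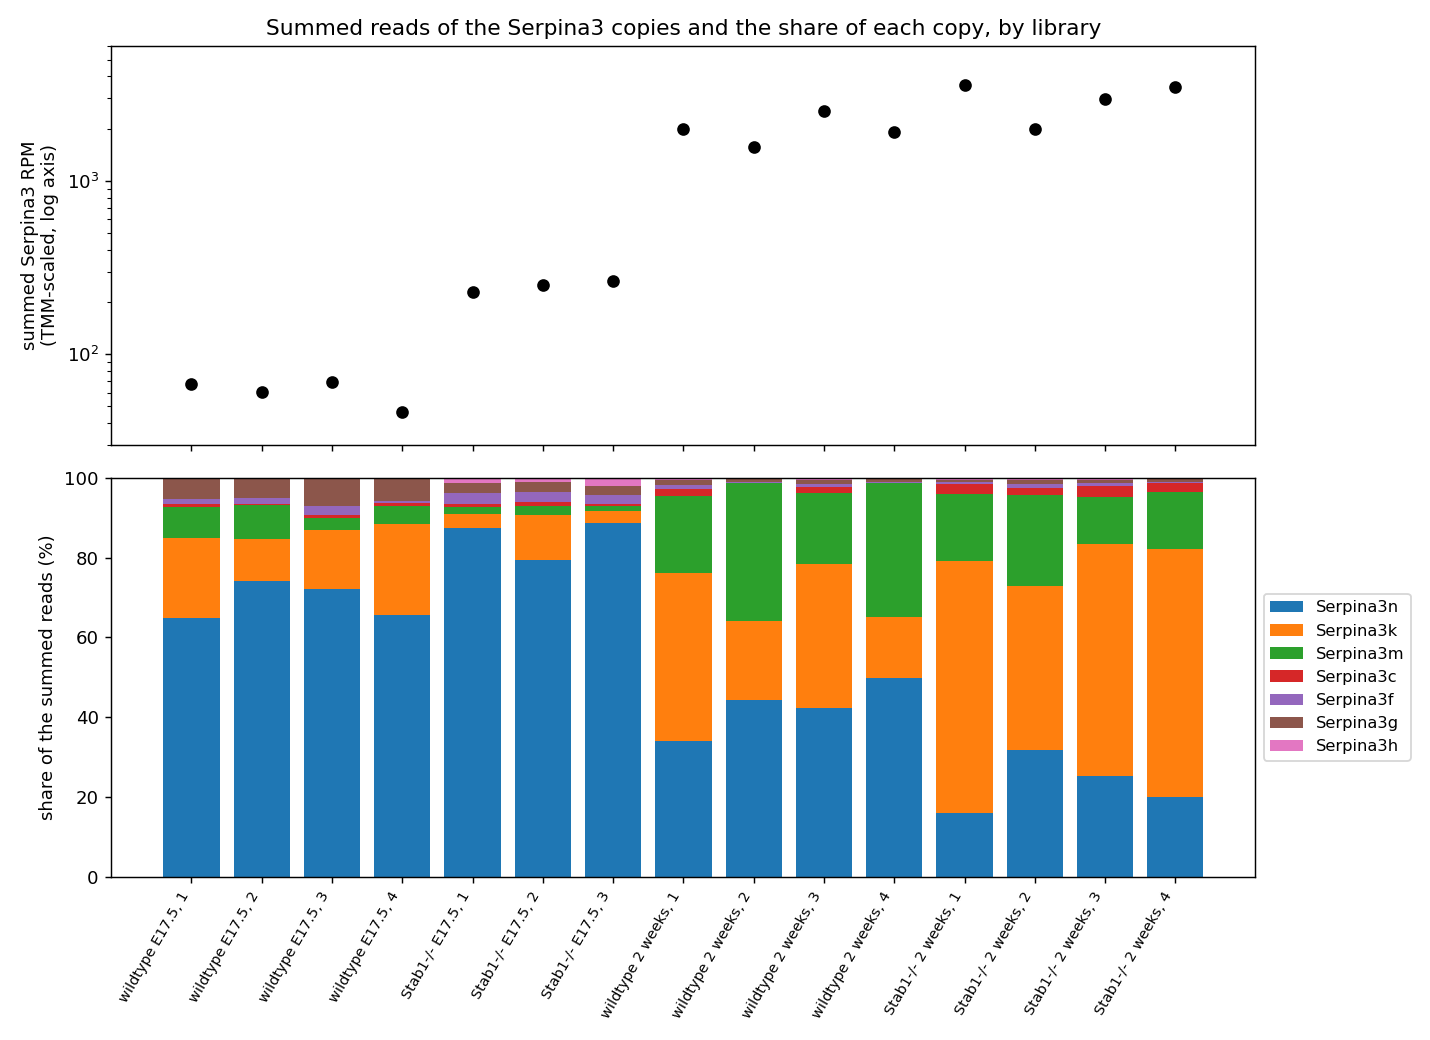
Above, summed RPM of the 7 Serpina3 copies in each library (TMM-scaled, log axis), and below, the share of each copy in that sum in percent. Serpina3n takes 64.8% to 88.8% of the reads at E17.5, and Serpina3k takes 41.1% to 63.2% in 2-week Stab1-/- livers.

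The copies divided these reads differently in each group. Serpina3n held 69.2% ± 4.70 (SD) of the Serpina3 reads in wildtype and 85.3% ± 5.06 in Stab1-/- fetal livers (84.2% without Stab1-/- replicate 1 and 83.5% without replicate 3). At 2 weeks its share was 42.6% ± 6.61 in wildtype and 23.3% ± 6.87 in Stab1-/- livers, the 2 groups not overlapping. Serpina3k held 28.3% ± 12.9 and 56.1% ± 10.3 at 2 weeks. In wildtype replicates 2 and 4 it held 19.8% and 15.1%, against 42.2% and 36.2% in replicates 1 and 3, while Serpina3m held 34.5% and 33.7% against 19.2% and 17.6%. Shares of one sum move against each other, so a lower share is not by itself a lower level.

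The deposited coverage, which is how much of a gene model has reads on it, gave a second view of the same genes. Serpina3n, Serpina6 and Serpina11 were covered to between 96.7% and 99.9% in every library. Serpina3k and Serpina3m reached 86.4% to 93.1% at 2 weeks with at least 2674 reads. Serpina3c stood out, since 355 to 850 reads in the 2-week Stab1-/- libraries covered only 20.2% to 31.7% of its model, and 367 and 384 reads in wildtype replicates 1 and 3 covered 23.0% and 27.6%. Over rows with at least 100 reads, between 0.594% and 0.957% per library were covered to under 35%. The reads counted for Serpina3c thus lay in a small part of its gene model, whose place the table does not give.

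Coverage also differed between genotypes for Serpina3m at E17.5, at similar read numbers. In wildtype fetal livers 61, 62, 26 and 25 reads covered 68.1%, 71.9%, 50.6% and 38.6% of the model. In Stab1-/- fetal livers 51, 67 and 41 reads covered 31.1%, 36.9% and 18.4%. All Stab1-/- libraries were thus covered less than all wildtype ones, although 2 of the wildtype libraries held fewer reads. Serpina3f in Stab1-/- fetal livers reached 52.8%, 46.2% and 27.6% with 66 to 77 reads, below the 60.7% and 56.7% that 61 and 45 reads gave in wildtype replicates 2 and 4 at 2 weeks. The deposited values do not show where along the gene these reads fell.

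Averaged over the 10 genes, coverage was 53.4% ± 2.38 (SD) at E17.5 and 69.5% ± 5.84 at 2 weeks in wildtype (exact permutation p = 0.02857, two-sided, n = 4 and 4). It was 58.5% ± 2.38 and 73.9% ± 0.793 in Stab1-/- livers (exact permutation p = 0.05714, n = 3 and 4). Coverage rises with reads, so it is not independent of the levels above.

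**Figure D4:**
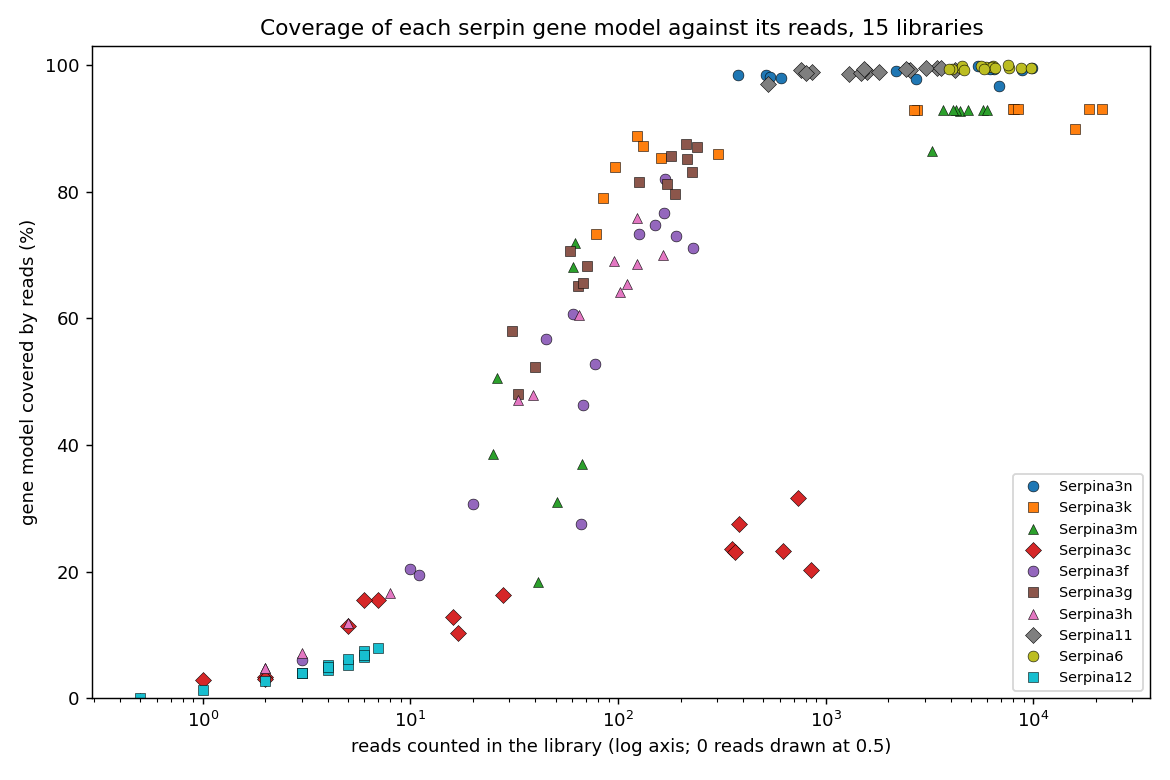
Covered part of each gene model in percent against reads per library (log axis) for each of the 10 genes in the 15 libraries. Serpina3c lies apart at 20.2% to 31.7% with 355 to 850 reads, and Serpina3m lies at 18.4% to 36.9% with 41 to 67 reads in the Stab1-/- fetal libraries.

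With the group means removed, some of the genes still varied together over the 15 libraries. Pearson's r of the deviations was 0.90 for Serpina3c and Serpina3h, 0.82 for Serpina3f and Serpina11, 0.79 for Serpina3f and Serpina3g, 0.75 for Serpina3c and Serpina3k, and 0.74 for Serpina3c and Serpina11. Serpina3m had an r between -0.46 and 0.02 with each of the other 8, and Serpina6 one between -0.56 and 0.11. Serpina3n was closest to Serpina11 (0.57) and Serpina3f (0.50). The points share libraries and, for some pairs, read stretches, the wildtype 2-week replicates 2 and 4 weigh heavily in them, and the values are a description.

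**Figure D5:**
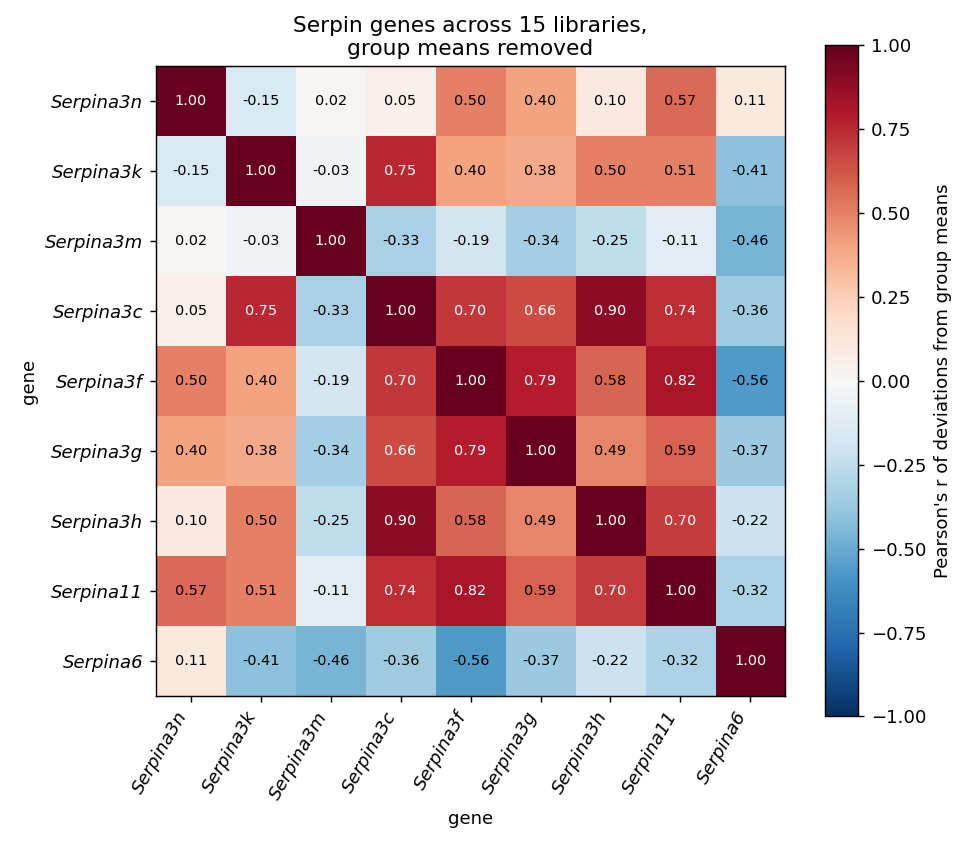
Pearson's r between pairs of genes over 15 libraries after the mean of each genotype and stage group was removed from log2 levels, with Serpina12 left out for its few reads. Serpina3c, Serpina3f, Serpina3g, Serpina3h, Serpina3k and Serpina11 have an r of 0.38 to 0.90 with each other, and Serpina3m and Serpina6 stand apart.

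Among 12034 rows with a mean RPKM of at least 1, the genes whose deviations were most like those of Serpina3n over the 15 libraries were Hps6 (r = 0.85), Abhd14a (0.83), AA415398 (0.82), Zfp956 (0.80) and Tnfaip8l1 (0.80). Those most like Serpina3k were Cmtm7 (0.92), Oxld1 (0.86), Itgam (0.83), Atp8a2 (0.82) and Sh2b2 (0.80). The highest of so many values of r are large by selection.

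Promoter sequences are shown for 5 genes to set beside these patterns, Serpina3n and Serpina3c (r = 0.05) and Serpina3f, Serpina3g and Serpina11. The last 3 varied together, and Serpina3c also varied with them (0.70 with Serpina3f, 0.66 with Serpina3g and 0.74 with Serpina11). The sequences are the RefSeq promoters on GRCm38.p6, 250 bases before to 50 after the start of transcription, 5′ to 3′. Capitals mark letters that match 1 of 6 searched motifs. RefSeq promoters were found for 6 of the 10 genes, and where a gene had a second start the first listed is given. Serpina3h, Serpina3k, Serpina3m and Serpina6 are named only.
Serpina3n (chr12:104406458-104406757, plus strand): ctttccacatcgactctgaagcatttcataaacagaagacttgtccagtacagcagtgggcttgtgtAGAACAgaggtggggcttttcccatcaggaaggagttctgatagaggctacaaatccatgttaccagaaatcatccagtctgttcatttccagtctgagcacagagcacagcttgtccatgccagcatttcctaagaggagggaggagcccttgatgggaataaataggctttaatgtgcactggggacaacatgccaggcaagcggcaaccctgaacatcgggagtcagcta
Serpina3c (chr12:104153823-104154122, minus strand): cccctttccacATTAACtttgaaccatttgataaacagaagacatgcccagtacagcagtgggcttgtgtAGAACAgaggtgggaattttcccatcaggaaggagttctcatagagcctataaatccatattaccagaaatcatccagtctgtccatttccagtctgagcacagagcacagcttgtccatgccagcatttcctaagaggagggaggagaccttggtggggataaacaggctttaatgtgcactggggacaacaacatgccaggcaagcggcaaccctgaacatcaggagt
Serpina3f (chr12:104214294-104214593, plus strand): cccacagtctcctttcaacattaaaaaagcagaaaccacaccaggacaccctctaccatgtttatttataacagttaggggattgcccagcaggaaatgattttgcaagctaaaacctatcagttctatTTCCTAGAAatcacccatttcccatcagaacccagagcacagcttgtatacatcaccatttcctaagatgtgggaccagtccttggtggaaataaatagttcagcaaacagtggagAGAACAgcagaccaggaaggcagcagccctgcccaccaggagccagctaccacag
Serpina3g (chr12:104235897-104236196, plus strand): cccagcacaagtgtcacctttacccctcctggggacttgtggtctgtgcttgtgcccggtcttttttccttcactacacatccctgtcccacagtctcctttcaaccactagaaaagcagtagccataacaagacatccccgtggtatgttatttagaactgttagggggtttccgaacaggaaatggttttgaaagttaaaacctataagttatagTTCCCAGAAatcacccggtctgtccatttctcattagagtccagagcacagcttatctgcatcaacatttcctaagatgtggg
Serpina11 (chr12:103989908-103990207, minus strand): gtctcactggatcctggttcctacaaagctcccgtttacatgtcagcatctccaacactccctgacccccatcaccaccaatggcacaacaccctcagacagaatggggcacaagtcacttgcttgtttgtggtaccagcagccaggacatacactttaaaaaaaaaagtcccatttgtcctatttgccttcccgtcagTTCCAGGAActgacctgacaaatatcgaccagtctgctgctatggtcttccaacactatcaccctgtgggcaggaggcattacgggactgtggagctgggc
The promoters of Serpina3n and Serpina3c were identical at 93.5% of 294 aligned bases, and those of Serpina3f and Serpina3g at 83.7% of 202. Serpina11 had 54.7% identity to Serpina3n and 61.4% to Serpina3g.

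The motifs were searched on both strands. The STAT element TTCNNNGAA was found in Serpina3f, Serpina3g and Serpina11, and in 8.30% of all 32851 promoters of this length. The glucocorticoid receptor element TGTTCT was found in Serpina3n, Serpina3c and Serpina3f, and in 19.0% of all. The HNF1 element GTTAAT was found in Serpina3c and in 7.10% of all. GGGANTTTC for NF-kB (1.11% of all), TTGCGCAA for C/EBP (0.183%) and CAAAGTCCA for HNF4 (0.475%) were not found in the promoters of these genes. A match says only that the letters stand in the window.

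Genes that act on or beside these serpins were read from 8 lists, of other serpins, the proteases that serpins bind, acute-phase proteins, and genes of STAT3, interferon gamma, glucocorticoid and growth hormone signalling, with 139 symbols in all. At E17.5 edgeR called 1 of 119 tested, the hepatocyte regulator Nr5a2 (log2 fold change 0.51 ± 0.09, adjusted p = 0.0484), beside 0.366% of all rows called. The acute-phase list had a median log2 fold change of 0.18 there over 23 tested genes, beside 0.00 over all rows.

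At 2 weeks 2 of the 119 tested genes were called higher in Stab1-/- livers and 7 lower, beside 0.936% and 1.74% of all rows. Higher were Orm1, an acute-phase plasma protein (2.83 ± 0.47, edgeR adjusted p = 0.0102), and Bcl6, a repressor in growth hormone signalling (2.20 ± 0.39, adjusted p = 0.0144). Lower were the growth hormone target Cish (-1.40 ± 0.30), the gluconeogenic enzymes Pck1 (-0.90 ± 0.19) and G6pc (-0.82 ± 0.19), the kinase Sgk1 (-0.68 ± 0.16), the protease Plau (-0.86 ± 0.20), the complement protein C3 (-0.67 ± 0.15) and Il6st, the shared receptor chain of the interleukin-6 family (-0.53 ± 0.11). The adjusted p-values of these 7 genes in edgeR lay between 0.0319 and 0.0478.

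Between the stages, averaged over genotypes, 84 of 127 genes tested on these lists were called higher at 2 weeks and 28 lower, beside 38.9% and 40.9% of all rows. Of 12 other clade A serpins tested, 9 were called higher and 3 lower, with Serpina9 up by 4.12 ± 0.64 and Serpina1e and Serpina4-ps1 down, at -2.87 ± 0.38 and -4.25 ± 0.58. The neutrophil proteases Elane (-6.28 ± 0.15), Ctsg (-6.18 ± 0.21) and Prtn3 (-5.33 ± 0.17) were among the 7 protease genes called lower. Saa1 (7.27 ± 0.37) and Saa2 (5.55 ± 0.46), acute-phase apolipoproteins, rose beside 6.90 ± 0.24 for Serpina3m and 6.38 ± 0.43 for Serpina3k in the same contrast. All these changes had an edgeR adjusted p of at most 1.43e-05.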

How the data were processed

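Total RNA of livers was sequenced by the authors in 15 libraries of 4 groups, which were taken from the sample labels. The authors deposited 1 table with whole-number read counts per gene, labelled as unique reads and not normalized. The deposited RPKM values are these counts divided by the listed gene length and the library total, and recomputed within 7.68e-12 percent. Coverage was deposited as a percent per gene and library, and gives how much of the model has reads. Aligner, counting program, strand setting and genome build are not given in the sources used here.

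Counts were fitted with edgeR 4.0.16 (TMM, filterByExpr with minimum count 10 and minimum total 15, quasi-likelihood test, two-sided) within each stage or genotype, and on all 15 libraries for the averaged stage effect and for the difference between stages. p-values were adjusted over all rows tested by the Benjamini-Hochberg method, and rows under 0.05 are called. Sums and coverage were tested by exact permutation of libraries (two-sided), and counting intervals are exact at 95%. DESeq2 1.42.0, other scalings, no filter, the replicate number as a block and each library left out were the alternatives. On simulated counts with 200 changed rows edgeR recovered 200 for both genotype contrasts, with 16 false calls at 2 weeks and 4 at E17.5. The median log2 change was 2.02 and 1.98 there, so recovery of smaller changes is not shown. For the difference between stages 196 of 200 were recovered, with 7 false calls. Libraries of a group differed by more than sampling noise (smallest chi-square per degree of freedom 5.41), so none was merged in the fits. The counting ratios and intervals of Serpina3h and Serpina3c do sum reads over the libraries of a group, and leave out the spread between libraries.

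The genes, lists and tests were chosen with earlier results of these data known. Named were the 10 serpins, Stab1, up to 3 called genes per list and contrast by size of change, and the 5 genes most like Serpina3n and Serpina3k. All 9 called pathway genes at 2 weeks are named beyond that rule, after their values were seen. So are Serpina3b, Serpina3i and the other clade A serpins given for the wildtype 2-week livers. The main fits did not pair libraries by replicate number, and whether the numbers link libraries is not stated. Between genotypes at 2 weeks the deviations of libraries with the same number correlated at -0.0046 to 0.1786, and with different numbers at -0.2173 to 0.2558. At E17.5 these were -0.1660 to 0.0068 and -0.0918 to 0.2407. Such values do not settle whether libraries with the same number share a source. Transcripts and positions come from GENCODE vM21, aligned with Biopython 1.88, and promoters from RefSeq.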

Additional observations from a re-analysis of the deposited data

Results flagged for a closer look

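Serpina6 in wildtype replicate 4 at E17.5 had an RPKM of 485, and the next of the 4 libraries had 289, so that the gap took 0.858 of the range of the group, more than Dixon's critical value for 4 samples at 95%. Of the 33 groups of 4 libraries examined this was the only one, and chance gives about 1 in 20.

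The genotype difference of Serpina3n differed between the stages, by 2.69 ± 0.24 on the log2 scale (E17.5 minus 2 weeks, edgeR interaction term, adjusted p = 2.77e-05), in a contrast that was in view when the gene was chosen. Of all rows, 1.01% were called in that direction. Every Stab1-/- library lay above every wildtype library at E17.5, and the genotypes overlapped at 2 weeks.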

How the results depend on the processing

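Of 818 values of single genes under the alternatives, 780 kept their direction and their side of the threshold. The stage calls were the most stable. They numbered 6 to 9 in wildtype and 8 in Stab1-/- livers under every alternative, Serpina6 being the one lost by library totals in wildtype.

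Genotype calls among the 10 genes moved with the fit, and the cause was not tested. At 2 weeks DESeq2, no filter, the replicate block and all 15 libraries in 1 fit each called 1 gene, Serpina3k (adjusted p 0.032, 0.0287, 0.0106 and 0.0487), and leaving out single libraries gave 0 to 1. At E17.5 DESeq2 called 5, adding Serpina3c, all 15 libraries in 1 fit called 2, losing Serpina3h (0.0645) and Serpina11 (0.0657), and leaving out libraries gave 2 to 4. For the difference between stages DESeq2 called 2 and the replicate block 3, and leaving out libraries gave 1 to 4. Over all rows the 340 calls at 2 weeks became 861 with DESeq2, 1181 with the replicate block and 703 with all 15 libraries, and 116 to 648 without single libraries. The 49 calls at E17.5 became 230 with DESeq2 and 23 with the replicate block, and 27 to 46 without single libraries. The 251 calls for the difference became 1028 with DESeq2 and 1088 with the replicate block, and 30 to 684 without single libraries. Beside Serpina3k at 2 weeks, the block ended the call of Serpina3h at E17.5 (adjusted p 0.0556) and added calls of Serpina3f (0.0299) and Serpina6 (0.0173) in the difference and of Serpina6 in the averaged stage effect (0.0267).

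Scaling by library totals changed the split of higher and lower calls from 119 and 221 to 137 and 118 at 2 weeks, from 26 and 23 to 22 and 32 at E17.5, from 4667 and 4948 to 3104 and 6834 for stage in wildtype, and from 140 and 111 to 83 and 209 for the difference. In Stab1-/- livers the stage split changed from 4791 and 4945 to 3758 and 5944, and averaged over genotypes from 5400 and 5676 to 3906 and 7183.

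Directions turned only for small values. The block gave Serpina3c a difference between stages of -0.41 in place of 0.29, and leaving out libraries gave -0.34 to 0.70. Leaving out libraries gave log2 ranges across 0 for Serpina3g (-0.11 to 0.14), Serpina3m (-0.232 to 0.046) and Serpina6 (-0.297 to 0.039) at 2 weeks, Serpina3k at E17.5 (-0.38 to 0.81) and Serpina6 for stage in Stab1-/- livers (-0.24 to 0.10). The summed Serpina3 level in wildtype rose by 4.91 to 5.14 and the mean coverage by 14.3 to 17.9 percentage points without single libraries, where 3 against 4 libraries cannot pass 0.05.

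Few reads limit Serpina12 in all libraries and Serpina3c, Serpina3f and Serpina3h before birth, where wildtype libraries held at most 20 reads of each.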
